A study of Mus musculus with 16 samples.

Results

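The lipins are phosphatidate phosphatases of the endoplasmic reticulum that convert phosphatidate to diacylglycerol, the step of glycerolipid synthesis that feeds both triglyceride and the main phospholipids. The mammalian family has 3 genes, Lpin1, Lpin2 and Lpin3, and all of them were read here. They were chosen by gene name as every non-control spot on the array annotated to one of these symbols, which gave 9 probes of the 41174 distinct probes: 4 for Lpin1, 4 for Lpin2 and 1 for Lpin3. The 3 genes stand among 27962 distinct gene names in the array's annotation.

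Lpin1 also acts in the nucleus of mouse hepatocytes as a partner of PPARα and PGC-1α, which drive fatty acid oxidation genes, and it is known as a gene that glucocorticoids and fasting raise in mouse liver. Mice without Lpin1 have a fatty liver as newborns and little adipose tissue. Lpin2 is known as an abundant hepatic lipin, and its loss in people causes an inflammatory bone disease, Majeed syndrome. Lpin3 is the least studied of the family and is best known from mouse intestine and adipose tissue.

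Liver RNA was taken from C57BL/6 males at 3 months of age, and each total RNA sample was hybridised alone to an Agilent whole mouse genome array. The design had 4 groups of 4 arrays: GR knockout given dexamethasone, GR knockout untreated, wild type given dexamethasone and wild type untreated. GR, the receptor for glucocorticoids, is the product of Nr3c1, and dexamethasone is a synthetic ligand of it. The protocol calls the knockout a liver knockout; it also speaks of a vehicle where the sample sources give no treatment, and the knockout titles carry the word PBS. The sources used here name neither the deleted part of Nr3c1 nor a Cre driver, and give no dose, route or duration of dexamethasone. Nothing in the labels says outright that each array was a separate mouse, so p-values measure the spread between these samples. The comparisons ask how dexamethasone changed each lipin with and without the receptor, whether the 2 responses differed, and how receptor loss changed each lipin with and without the drug.

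Levels below are log2 signals relative to the 75th percentile of each array's signal, so a difference of 1 is a 2-fold change. Tests are two-sided limma fits over all 26794 probes that passed the filter on dim signal, and a call means an adjusted p under 0.05 by the Benjamini-Hochberg method. All 9 lipin probes passed that filter, 8 of them with signal well above background on all 16 arrays. Precision is limited by the number of arrays.

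The 75th percentile of signal was 309 on untreated knockout array 1 and 400 on untreated wild-type array 4, against 523.9 to 691.1 on the other 14 arrays, and the share of spots well above background was 57.3% to 67.9%. Untreated knockout array 1 also correlated least with its own group (mean r 0.956 across probes, against 0.971 to 0.989 on the other arrays). A slide carried arrays of only 1 group, so an effect of the slide and an effect of the group cannot be told apart here. The Nr3c1 probe with the highest signal averaged 0.17 ± 0.26 in treated and 0.42 ± 0.13 in untreated knockout livers, against 2.13 ± 0.15 in treated and 2.40 ± 0.18 in untreated wild-type livers (SD, n = 4 each). This was 3.90-fold lower in knockout livers with dexamethasone and 3.96-fold lower without it, and whether this probe lies in the deleted part is not known. Of the other 3 Nr3c1 probes, A_52_P63106 and A_51_P355693 were also called lower in both comparisons. A_52_P254174 was called in neither (-0.97 with dexamethasone, adjusted p = 0.197, and -1.62 without it, adjusted p = 0.103), and at that probe treated knockout array 1 read -1.46, above every wild-type array (-2.88 to -2.09). The 6 measured hepatocyte markers of the 8 listed were above background on every array.

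The 4 Lpin1 probes lie close together on the minus strand of chromosome 12 in the mm7 build, at chr12:16591654-16591713 (A_52_P483105), chr12:16591634-16591693 (A_52_P483104), chr12:16591574-16591633 (A_52_P483101) and chr12:16590760-16590818 (A_51_P394984). A_52_P483101 had the highest mean signal and stands for Lpin1 below. The stretches of 30 bases are shown because they tell a reader how far the 4 readings are independent: capitals mark 20 of the 40 bases that A_52_P483105 and A_52_P483104 share.
Lpin1 A_52_P483105: gagcatcctaGCCAGATCCTTAGGCTTATA
Lpin1 A_52_P483104: GCCAGATCCTTAGGCTTATAgccgtcatga
Lpin1 A_52_P483101: ccaaagagcctcattctgtggatgtcacac
Lpin1 A_51_P394984: tacaaatgcaccatcttagacatacagcag
A_52_P483101 abuts A_52_P483104, and A_51_P394984 lies 755 bases further along the transcribed strand. A_51_P394984 was designed on another record than the other Lpin1 probes. All 4 read 1 gene in the same RNA samples, so they are repeat readings and not replicates. Whether they read the same transcripts was not tested.

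The 4 Lpin2 probes are spread over the plus strand of chromosome 17 (mm7) and were designed on different records. A_51_P256323 at chr17:69529021-69529080 (clone AK012110) had the highest mean signal and stands for Lpin2 below. A_51_P370438 (NM_022882) lies 2808 bases before it and maps over 367 bases, chr17:69525846-69526212, more than the 60 bases of the probe, so its match on the genome is split. A_52_P397786 at chr17:69494585-69494644 (clone AK033959) and A_51_P483081 at chr17:69486290-69486349 (clone AK085538) lie 34376 and 42671 bases before the main probe. The sequences are shown because these probes gave unlike readings.
Lpin2 A_51_P256323: agtgccactaagcagctttaagttgtccgt
Lpin2 A_51_P370438: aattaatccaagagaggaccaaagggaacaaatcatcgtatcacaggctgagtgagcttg
Lpin2 A_52_P397786: ttaaacttgcatgctattgaagaccatggt
Lpin2 A_51_P483081: taccatttatgtattctaatccaattctac
Lpin3 has 1 probe, A_51_P345975, on the plus strand at chr2:160646495-160646554 (mm7).
Lpin3 A_51_P345975: aagaactggaacaagtagccatctcgacag
No mm7 gene models were used here, so exon, intron and UTR positions are not stated.

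The 250 bases before the Lpin1 start in RefSeq (GRCm38.p6, minus strand, chr12:16610967-16611216) are shown because Lpin1 differed both with the drug and with receptor loss.
Lpin1 promoter: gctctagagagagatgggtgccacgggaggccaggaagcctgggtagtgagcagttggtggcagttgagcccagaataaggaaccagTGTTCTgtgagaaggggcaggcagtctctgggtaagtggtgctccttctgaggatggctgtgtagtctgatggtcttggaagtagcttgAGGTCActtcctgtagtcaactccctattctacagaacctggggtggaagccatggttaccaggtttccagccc
The capitals mark TGTTCT, the half-site of the glucocorticoid response element, 163 to 158 bases before the start, and AGGTCA, a half-site of other nuclear receptors, 74 to 69 bases before it. On either strand, 16.1% of 32851 promoter windows of this length held TGTTCT and 14% held AGGTCA. The full palindrome of the glucocorticoid response element, which contains TGTTCT, occurred in 0.00913% of windows, the E-box CACGTG in 6.02% and the sterol regulatory element in 0.0731%, and the Lpin1 window held no exact match to these letters. TGTTCT was also found in 1 of 3 Lpin2 windows and 1 of 2 Lpin3 windows. A match is a description of letters and not a binding site.

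Of the 3 lipins, Lpin1 had the largest called differences. It rose 3.21-fold with dexamethasone in wild-type livers, and knockout livers held 10.4-fold less of it without the drug and 14.6-fold less with it. All 4 probes gave these 3 calls.

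In dexamethasone-treated wild-type livers the Lpin1 level was 6.93, 6.36, 6.83 and 6.94, against 4.11, 5.53, 4.68 and 6.01 in untreated wild-type livers. The treated arrays lay close together and all above the untreated ones, which were more widely spread. The log2 difference was 1.68 ± 0.39 (SE; 95% interval 0.85 to 2.52; limma, adjusted p = 0.0127). The 4 Lpin1 probes gave differences of 1.68 to 1.78, with adjusted p between 0.011 and 0.014. These were the 4 of 9 lipin probes called in wild type, all higher, where 11.5% of all probes tested were called, 5.23% as higher and 6.31% as lower.

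Untreated wild-type array 4 had the highest untreated Lpin1 level, and it was also the highest of its group for Fkbp5, a classic glucocorticoid-induced gene (1.70, where untreated arrays 1 to 3 had -1.63 to 0.11). Without that array the Lpin1 difference was 1.99, and without array 1, which had the lowest Lpin1 level, it was 1.36. The call held when any 1 of the 8 arrays was left out (adjusted p 0.0047 to 0.042).

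In knockout livers the Lpin1 level was 2.80, 3.19, 1.94 and 3.67 with dexamethasone, against 1.38, 1.86, 2.02 and 1.53 without it. Treated arrays 1, 2 and 4 lay above every untreated one, and treated array 3 lay among them. The log2 difference was 1.20 ± 0.39 (SE; 95% interval 0.37 to 2.04), a ratio of 2.30, and it did not pass the threshold (limma, adjusted p = 0.123). The unadjusted p was 0.00767, and no Lpin1 probe passed (differences 1.20 to 1.28, adjusted p 0.11 to 0.14).

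The response in knockout minus the response in wild type was -0.48 ± 0.55 (SE) for Lpin1, with a 95% interval of -1.66 to 0.70 (adjusted p = 0.798). That interval includes an equal response and also a response smaller in the knockout by a factor of 3.15. None of the 9 lipin probes was called for this difference, where 3.58% of all probes were, 1.38% as higher and 2.19% as lower. A call in wild type and none in the knockout is therefore not a shown difference for Lpin1.

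Receptor loss separated the Lpin1 levels more widely than the drug did. The highest knockout array (3.67, treated) lay below the lowest wild-type array (4.11, untreated), so the 8 knockout and 8 wild-type arrays did not overlap. The difference was -3.38 ± 0.39 (SE) without dexamethasone (95% interval -4.22 to -2.55; limma, adjusted p = 0.00127). With dexamethasone it was -3.86 ± 0.39 (SE; 95% interval -4.70 to -3.03; adjusted p = 3.47e-05). Both calls held for each probe, and when any 1 array was left out the main probe gave -3.71 to -3.07 without the drug and -4.12 to -3.54 with it.

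In order of level, Lpin1 ran from treated wild type (6.76 ± 0.27) through untreated wild type (5.08 ± 0.85) and treated knockout (2.90 ± 0.73) to untreated knockout (1.70 ± 0.29; SD, n = 4 each). Neighbouring groups did not overlap, except that the treated and untreated knockout arrays did.

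**Figure D1:**
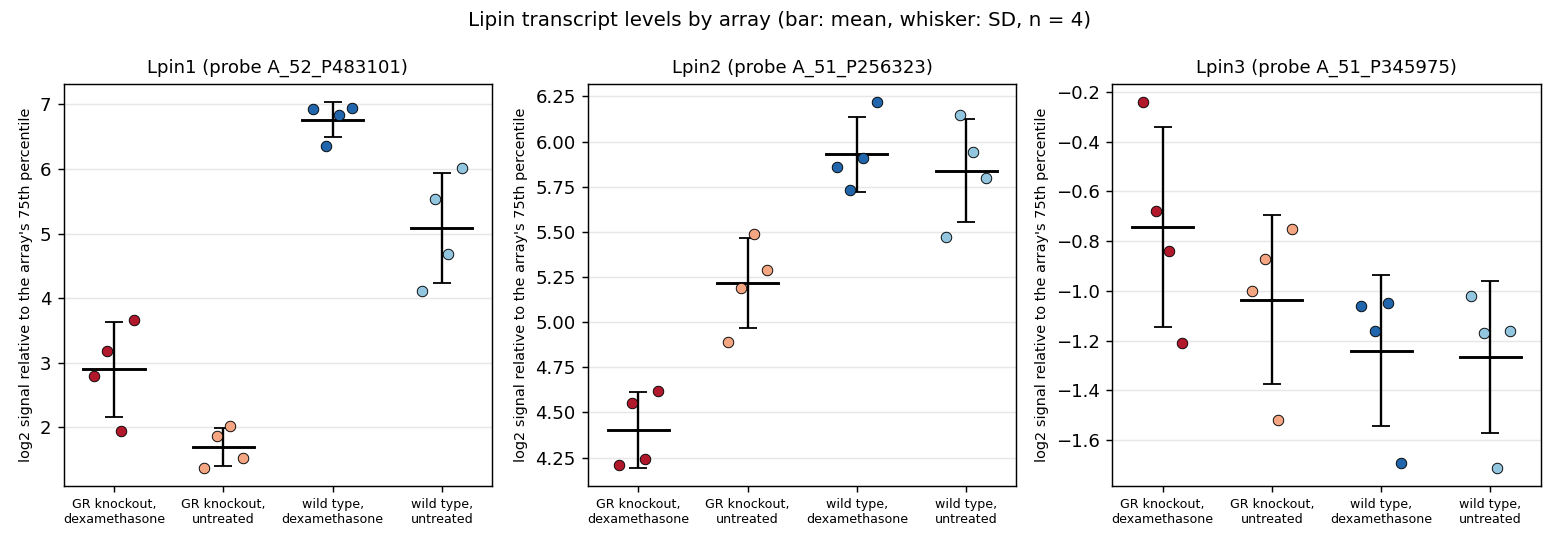
Log2 signal relative to the array's 75th percentile for the main probes of Lpin1, Lpin2 and Lpin3 in GR knockout with dexamethasone, GR knockout untreated, wild type with dexamethasone and wild type untreated. Points are arrays, bars means and whiskers SD (n = 4); the Lpin1 knockout arrays all lie below the wild-type arrays, Lpin2 is lowest in treated knockout, and the Lpin3 groups overlap. The vertical scale differs between panels, and levels of different probes are not comparable.

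Counted over the family, 5 of 9 lipin probes were lower in untreated knockout than in untreated wild-type livers, where 2.41% of all probes were called, 1.58% as higher and 0.836% as lower. With dexamethasone 6 of 9 were lower in the knockout, where 20.7% of all probes were called, 12.2% as higher and 8.42% as lower. The Lpin1 probes make up 4 of the calls in each, and the others belong to Lpin2. No lipin probe was higher in the knockout in either comparison. In knockout livers given dexamethasone, 1 of 9 probes was called, as lower than untreated, where 2.79% of all probes were called, 0.974% as higher and 1.81% as lower.

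**Figure D2:**
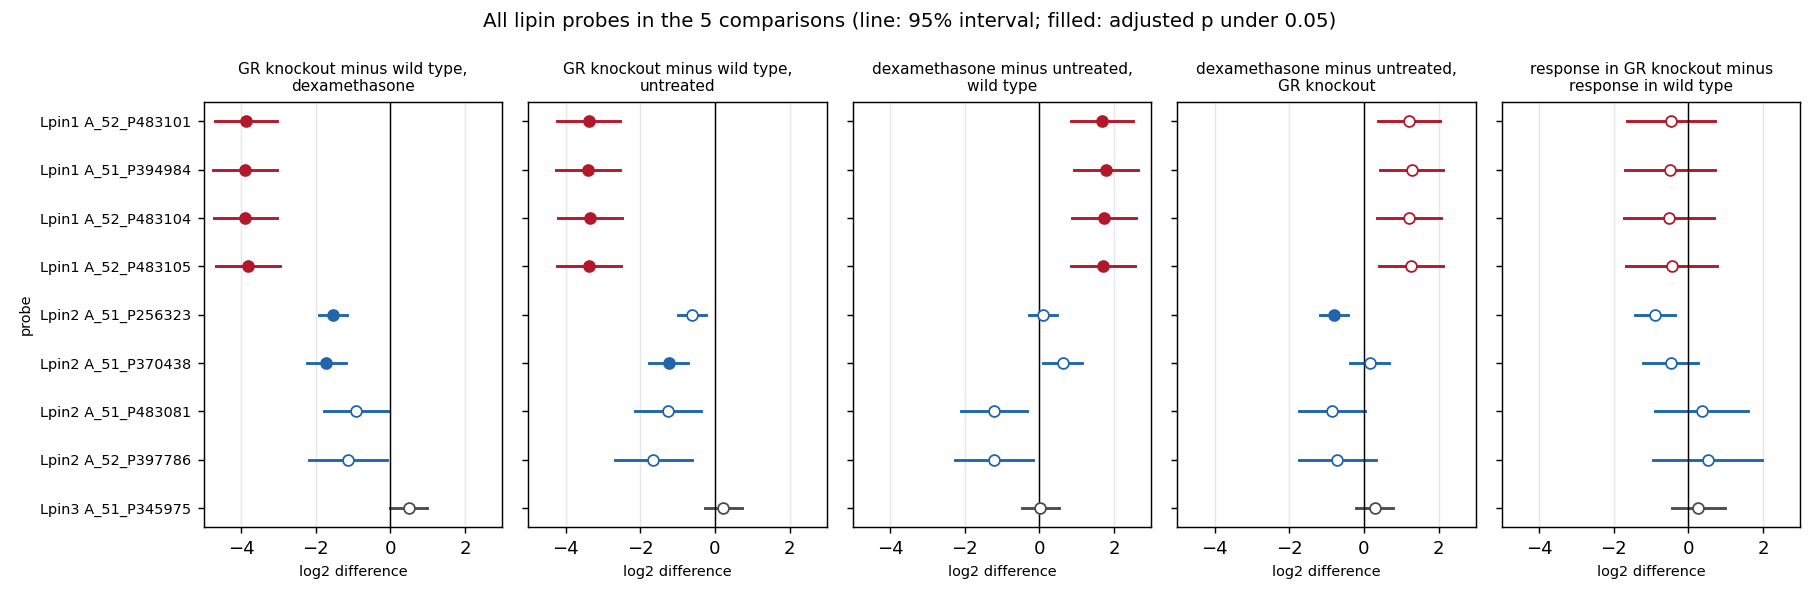
Log2 differences (points) with 95% intervals (lines) for all 9 lipin probes in the 5 comparisons, with filled points where the adjusted p was under 0.05. The 4 Lpin1 probes lie together in every panel, between -3.90 and -3.81 for knockout minus wild type with dexamethasone, whereas the Lpin2 probes spread to both sides of 0 for dexamethasone in wild type.

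At its main probe Lpin2 did not follow the Lpin1 pattern. That probe made no call for dexamethasone in wild-type livers and fell 1.75-fold with dexamethasone in knockout livers. It was 2.88-fold lower in knockout than in wild-type livers given the drug. At A_51_P370438, in contrast, the groups stood in the same order of level as for Lpin1.

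The Lpin2 level (A_51_P256323) was 4.21, 4.55, 4.24 and 4.62 in treated knockout livers, against 4.89, 5.19, 5.49 and 5.29 in untreated knockout livers. The groups did not overlap. The difference was -0.81 ± 0.18 (SE; 95% interval -1.18 to -0.44; limma, adjusted p = 0.0248). The call was close to the threshold: it was lost when untreated knockout array 2, 3 or 4 or treated knockout array 1 or 3 was left out (adjusted p 0.054 to 0.083), while the difference stayed between -0.92 and -0.72.

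In wild-type livers the Lpin2 level was 5.86, 5.73, 5.91 and 6.22 with dexamethasone and 5.47, 6.15, 5.94 and 5.80 without it. The untreated range enclosed all treated arrays but array 4. The difference was 0.09 ± 0.18 (SE; 95% interval -0.29 to 0.46; adjusted p = 0.796), which bounds a rise at this probe, though not at A_51_P370438 below, at 0.46 on the log2 scale. The difference between the responses was -0.90 ± 0.25 (SE; 95% interval -1.43 to -0.37) and did not pass (adjusted p = 0.0621). With the replicate number as a block it passed (-0.90, adjusted p = 0.042).

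Against wild type, Lpin2 was lower in treated knockout livers by a log2 difference of -1.52 ± 0.18 (SE; adjusted p = 7.21e-05), with no overlap. Without the drug the difference was -0.63 ± 0.18 (SE; 95% interval -1.0 to -0.25) and did not pass (adjusted p = 0.0734); untreated knockout array 3 (5.49) lay within the wild-type range. By level the order was treated wild type, untreated wild type, untreated knockout and treated knockout, and only the last step was free of overlap.

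The probe on the Lpin2 reference transcript, A_51_P370438, gave the same direction as the main probe for receptor loss, but showed no fall with the drug in knockout livers. Its level was 0.66, -0.38, -0.36 and 0.23 in treated and -0.77, 0.09, 0.03 and 0.22 in untreated knockout livers, against 1.81, 1.49, 1.87 and 1.86 in treated and 1.02, 1.28, 0.91 and 1.31 in untreated wild-type livers. Every knockout array lay below every wild-type array, and treated wild-type arrays lay above untreated ones. It was 3.28-fold lower in treated knockout livers (-1.72 ± 0.25, SE; adjusted p = 0.000336) and 2.36-fold lower in untreated ones (-1.24 ± 0.25, SE; adjusted p = 0.019). The untreated call was lost without untreated wild-type array 2 (-1.19, adjusted p = 0.065). The drug differences were 0.63 in wild type (adjusted p = 0.119) and 0.15 in knockout (adjusted p = 0.824), and neither passed.

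The clone-based Lpin2 probes far upstream were dim and made no call. A_51_P483081 read -2.47, -2.13, -2.71 and -2.92 in treated wild-type livers, against -1.03, -1.31, -1.76 and -1.28 in untreated wild-type livers. A_52_P397786 read -4.19, -4.18, -4.59 and -4.53 in the treated, against -3.33, -2.83, -3.38 and -3.06 in the untreated wild-type group. At both probes the treated wild-type arrays lay below all untreated ones, opposite to A_51_P370438.

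The differences were -1.21 (adjusted p = 0.0724) and -1.22 (adjusted p = 0.125). In the knockout groups A_52_P397786 was well above background on 2 of 4 arrays with and 2 of 4 without dexamethasone, so its knockout values are partly at the floor. Its treated knockout arrays read -4.57, -4.68, -6.64 and -6.13, against -3.27, -5.30, -5.51 and -5.11 on untreated ones. A_51_P483081 read -3.03, -2.68, -3.65 and -4.51 in treated and -1.34, -3.28, -2.95 and -2.84 in untreated knockout livers. Untreated knockout array 1, the array with the lowest overall signal, was the highest of its group at both probes.

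For Lpin2 the 4 probes thus disagreed on dexamethasone in wild type, where they ran from -1.22 to 0.63, and were negative for knockout against wild type, from -1.65 to -0.63 untreated and from -1.72 to -0.91 with the drug. The -1.65 is from A_52_P397786, which was only partly above background in the knockout, and with normexp background correction that probe was at 0.09 for knockout against wild type with the drug, against -1.14. Which transcripts the clone probes read was not tested.

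**Figure D3:**
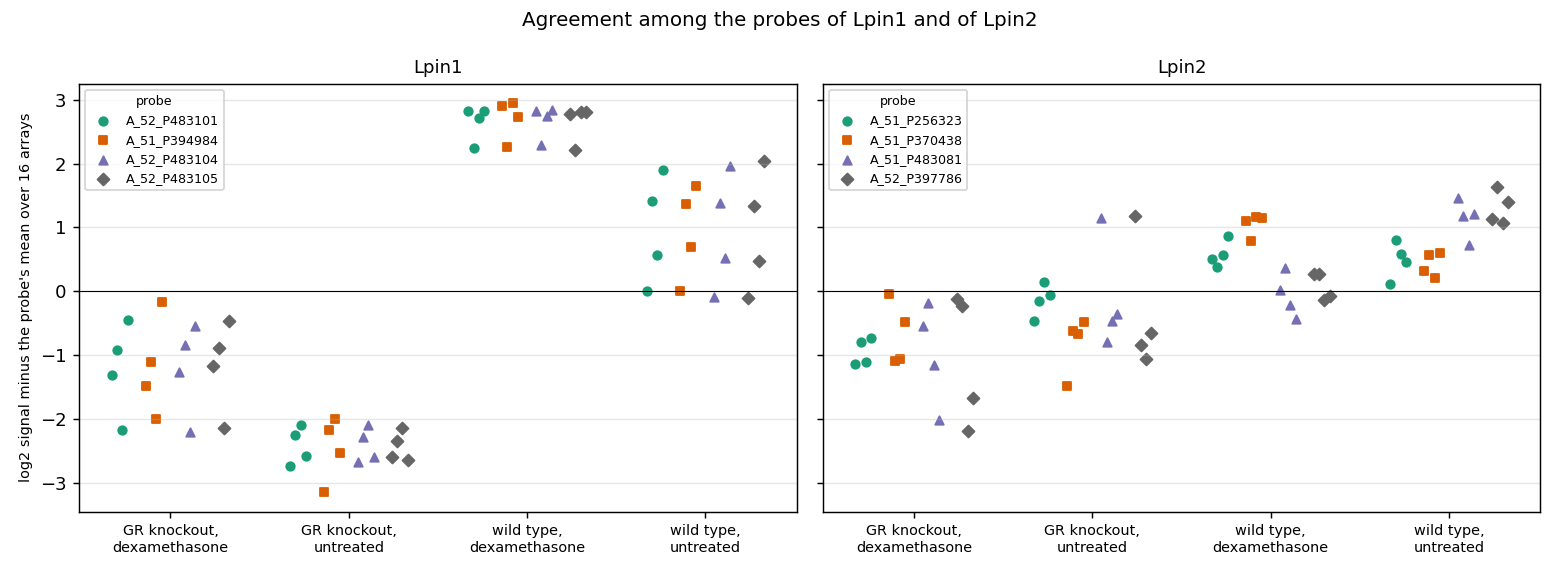
Log2 signal of each Lpin1 probe (left) and each Lpin2 probe (right) minus that probe's own mean over the 16 arrays, by group, with 1 point per array and a symbol per probe. The 4 Lpin1 probes follow each other, whereas in the wild-type groups the Lpin2 probes A_51_P483081 and A_52_P397786 are lower with dexamethasone and A_51_P370438 is higher.

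Lpin3 showed no called difference in any of the 5 comparisons. Its level was -0.24, -0.68, -0.84 and -1.21 in treated and -1.0, -0.87, -1.52 and -0.75 in untreated knockout livers, against -1.06, -1.16, -1.05 and -1.69 in treated and -1.02, -1.17, -1.71 and -1.16 in untreated wild-type livers. Treated knockout arrays 1, 2 and 3 were above all treated wild-type arrays, and the ranges of all 4 groups overlapped. The largest difference was knockout against wild type with dexamethasone, 0.50 ± 0.23 (SE; adjusted p = 0.148), positive where Lpin1 and Lpin2 were negative. For dexamethasone the 95% intervals were -0.47 to 0.52 in wild type and -0.20 to 0.79 in knockout, so a change of up to 0.79 on the log2 scale is compatible with these arrays.

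The paralogs were then compared within arrays, as the difference between the main probes of 2 genes on the same array, which removes the scaling of the array. A probe's level cannot be set against another's, so the group means of these differences have no meaning alone and only their change between groups is read. Exact two-sided permutation tests were run for the 3 pairs in 4 comparisons, 12 in all, with p adjusted over the 12. With 4 against 4 arrays the smallest possible p is 0.0286, which is an adjusted 0.0381 here, and 9 of the 12 reached it.

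At the main probes Lpin1 and Lpin2 parted in all 4 comparisons. In wild type Lpin1 gained 1.59 on Lpin2 with dexamethasone, as the difference was 0.83 ± 0.19 in treated and -0.76 ± 0.73 in untreated livers (SD, n = 4 each). In knockout livers it gained 2.01, as the difference was -1.51 ± 0.57 in treated and -3.52 ± 0.18 in untreated livers. With receptor loss the difference changed by -2.76 without the drug and by -2.34 with it. The exact permutation p was 0.0286 in each (adjusted 0.0381), and no arrays of the groups compared overlapped. These values depend on the probe that reads Lpin2. With A_51_P370438 in its place, chosen after seeing the data, Lpin1 gained 1.06 on Lpin2 in wild type and changed by -2.14 and -2.15 with receptor loss (exact permutation p = 0.0286, adjusted 0.0381, for each), whereas the gain in knockout livers was 1.05 and did not pass (exact permutation p = 0.0571, adjusted 0.0686).

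Lpin1 gained 1.66 on Lpin3 with dexamethasone in wild type and was lower relative to it with receptor loss, the change being -3.61 untreated and -4.36 treated, each at the smallest exact p of 0.0286 (adjusted 0.0381). In the knockout the gain of Lpin1 on Lpin3 was 0.91 and did not pass (exact permutation p = 0.171, adjusted 0.187). Lpin2 against Lpin3 differed by 0.06 for dexamethasone in wild type (exact permutation p = 0.914) and by -0.85 for receptor loss without the drug (exact permutation p = 0.0857, adjusted 0.103). Lpin2 fell relative to Lpin3, with a change of -1.10 with dexamethasone in the knockout and of -2.02 with receptor loss under the drug (exact permutation p = 0.0286, adjusted 0.0381, for each). With A_51_P370438 the fall in the knockout did not pass (-0.14, exact permutation p = 0.743), the change under the drug was -2.21, and Lpin2 against Lpin3 then differed for dexamethasone in wild type (0.60) and for receptor loss without the drug (-1.47), these 3 at an exact permutation p of 0.0286 (adjusted 0.0381).

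**Figure D4:**
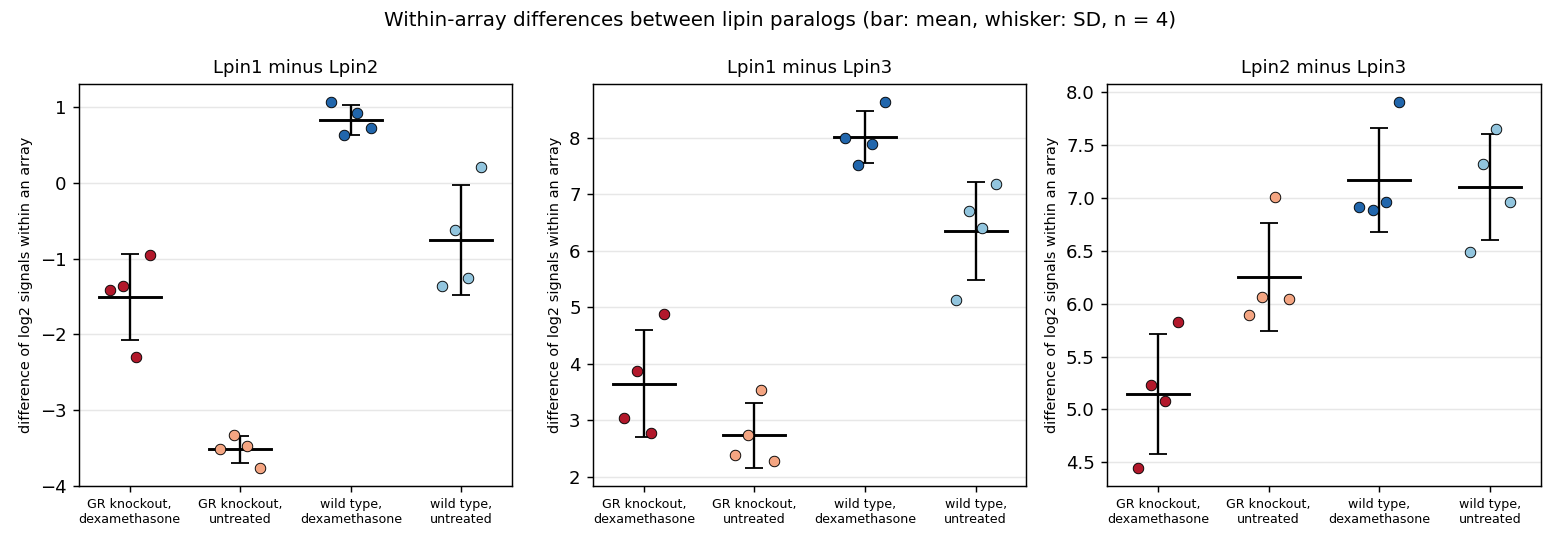
Difference of log2 signals within an array between the main probes of 2 lipins, by group, with 1 point per array, bars at the mean and whiskers of SD (n = 4). Lpin1 minus Lpin2, read by the main probes, is separated in all 4 comparisons of groups, for example 0.83 on average in treated and -0.76 in untreated wild type; the zero of each panel is arbitrary.

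Over the 16 arrays, the genes whose levels most resembled Lpin1 among 15136 genes with a symbol were St3gal5, a ganglioside-forming sialyltransferase (r = 0.962), Cebpd, a C/EBP transcription factor (0.96), Eif4ebp3, an inhibitor of cap-dependent translation (0.955), Cdip1 (0.954) and Nlrp12 (0.954). These Pearson correlations include the differences between the 4 groups. After the group means were taken out they were 0.38 to 0.631. Eif4ebp3 averaged 2.84 in treated and 1.50 in untreated knockout livers, against 6.81 in treated and 4.24 in untreated wild-type livers.

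For Lpin2 the most similar genes were Klhl21 (r = 0.901), Ip6k2 (0.894), Zmym2 (0.892), Smarca5 (0.888) and Igfbp1 (0.886), the last an insulin-like growth factor binding protein, and within groups these were at 0.149 (Ip6k2) to 0.702 (Igfbp1). For Lpin3 the most similar genes included Dnajc11 (0.919), Anapc4 (0.892), Dhx34 (0.892) and Tgfbr2 (0.891), and these stayed at 0.86 to 0.89 within groups. Among the paralogs, Lpin1 and Lpin2 correlated at 0.721 (0.636 within groups), Lpin1 and Lpin3 at -0.425 (-0.202 within groups), and Lpin2 and Lpin3 at -0.7 (-0.588 within groups). The arrays share labelling and scaling, and these values are descriptions.

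The enzymes around the lipins in glycerolipid synthesis did not move as a body. Of 25 genes tested, 2 rose and 3 fell with dexamethasone in wild-type livers, beside 11.5% of all probes called, and their median log2 difference was -0.13, against -0.03 over all genes. Gpat4, a glycerol-3-phosphate acyltransferase upstream of the lipin step, rose 1.81-fold to 7.54, 7.18, 7.55 and 7.79 in treated wild-type livers, against 6.59, 6.50, 6.44 and 7.11 in untreated ones (adjusted p = 0.0049). Agpat5, which acylates the next intermediate, rose by 0.55 (adjusted p = 0.016). Without untreated wild-type array 4, 2 rose and 4 fell.

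Gpat2 fell 1.86-fold (adjusted p = 0.013), as did Cds2 (1.86-fold, adjusted p = 0.007), which draws phosphatidate into CDP-diacylglycerol in competition with the lipins. Dgkz, a diacylglycerol kinase that works opposite to the lipins by making phosphatidate, fell 1.53-fold to -0.02, 0.03, 0.04 and 0.03 in treated wild-type livers, against 0.52, 0.83, 0.55 and 0.62 in untreated ones (adjusted p = 0.0047). In knockout livers 1 of 25 changed, beside 2.79% of all probes: Gpat2, which fell 2.03-fold (adjusted p = 0.018; lost in 1 of 8 fits with 1 array left out). The response differed between genotypes for Gpat4 (-0.96, adjusted p = 0.037) and Dgkz (0.66, adjusted p = 0.042), though these calls were lost in 12 and 15 of the 16 fits that left out 1 array each. Under dexamethasone 5 of 25 were higher and 3 lower in knockout than in wild-type livers, beside 12.2% and 8.42% of all probes, with Gpam, the mitochondrial acyltransferase, 1.77 higher and Gpat4 1.09 lower on the log2 scale.

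**Figure D5:**
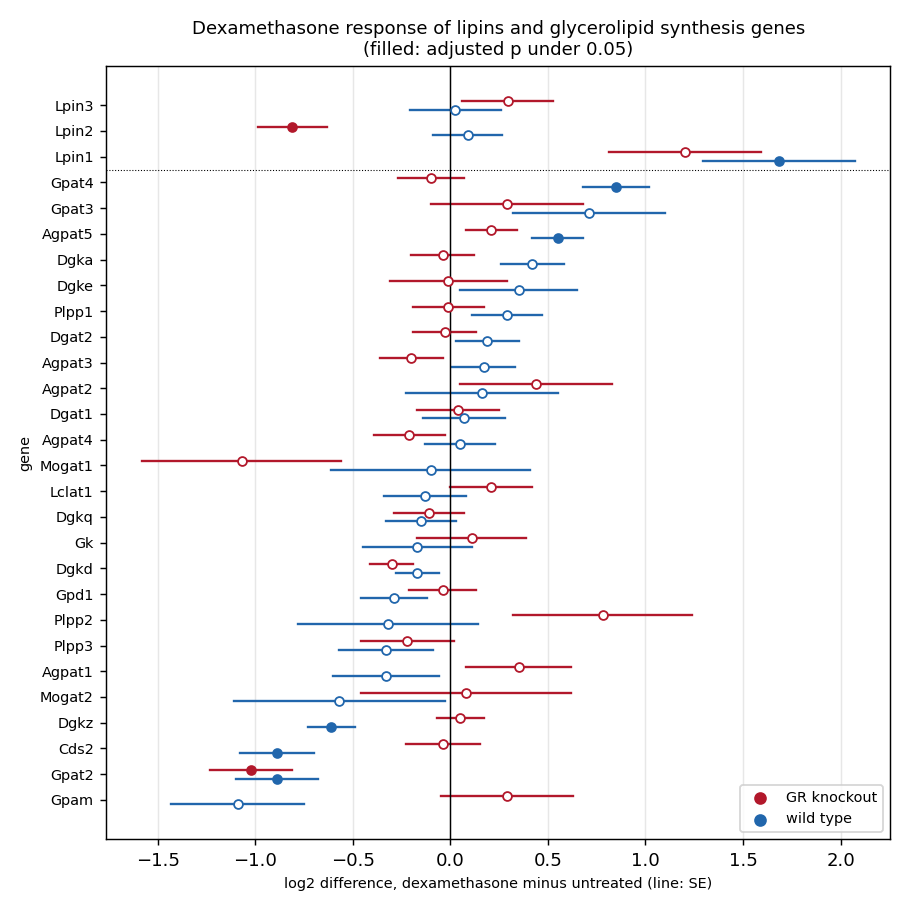
Log2 difference of dexamethasone-treated minus untreated livers, with SE, for the 3 lipins (above the dotted line) and 25 glycerolipid synthesis genes, in GR knockout (red) and wild type (blue), with filled points where the adjusted p was under 0.05. In wild type the difference of Lpin1 (1.68) lies to the right of those of the 25 genes, of which Gpat4 (0.85) is the highest.

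Of 19 genes of the phospholipid branches, 2 fell with dexamethasone in wild type, a share near the 11.5% of all probes called: Pld2, a phospholipase D that makes phosphatidate, by 0.97 on the log2 scale (adjusted p = 0.0023), and Selenoi, which makes phosphatidylethanolamine from diacylglycerol, by 0.84 (adjusted p = 0.0035). The response of Pld2 differed between genotypes (1.01, adjusted p = 0.029; lost in 7 of 16 fits with 1 array left out). Pcyt1b, a rate-setting enzyme of phosphatidylcholine synthesis, was above background on 4 of 4 treated and 0 of 4 untreated knockout arrays, and was at least 1.64-fold higher with the drug (fitted adjusted p = 0.0064). That bound sets the mean of the treated arrays against the higher of each untreated array's lowest detected signal and its own.

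Among 20 genes that regulate the lipins or act with them, 1 rose and 2 fell in wild-type livers given dexamethasone. The share of all probes called there was 11.5%. None was called in knockout livers, beside 2.79% of all probes. At an unadjusted limma p under 0.05 there were 2 in the knockout, beside 4127 of all 26794 probes. Srebf1, the sterol response factor known to activate the human LPIN1 promoter in hepatoma cells, fell 5.95-fold to 4.03, 5.03, 4.11 and 3.17 in treated wild-type livers, against 7.80, 7.48, 6.23 and 5.12 in untreated ones (adjusted p = 0.0062). The treated arrays were all lower, opposite to Lpin1. The Srebf1 response differed between genotypes (2.86, adjusted p = 0.046; lost in 13 of 16 fits with 1 array left out), and under dexamethasone it was 3.63 higher in knockout livers.

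Ppara, the receptor that Lpin1 partners in mouse liver, fell 1.85-fold (adjusted p = 0.01), and Hnf4a, a hepatocyte factor, rose 1.50-fold (adjusted p = 0.04; lost in 7 of 8 fits with 1 array left out). Ppargc1a, which encodes PGC-1α, was 1.38 lower on the log2 scale in knockout than in wild-type livers given the drug (adjusted p = 0.0064). Of 26 fatty acid oxidation genes, 0 were called by limma for dexamethasone in wild type, beside 11.5% of all probes, or in knockout, beside 2.79%. At an unadjusted limma p under 0.05 there were 2 and 1, beside 6936 and 4127 of all 26794 probes. In knockout against wild-type livers under the drug 5 were higher and 1 lower, near the 20.7% of all probes called there.

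Among 20 lipogenesis genes 1 rose and 4 fell with dexamethasone in wild type (5.23% and 6.31% of all probes), with a median of -0.30. In knockout livers 0 were called by limma, beside 2.79% of all probes. At an unadjusted limma p under 0.05 there were 0 in the knockout, beside 4127 of all 26794 probes. In wild type Insig2, which holds SREBPs in the endoplasmic reticulum, rose 4.92-fold (adjusted p = 0.0037), and Acly, which makes cytosolic acetyl-CoA, fell 2.48-fold (adjusted p = 0.017; lost in 2 of 8 fits with 1 array left out). Under dexamethasone 9 of the 20 were higher and 1 lower in knockout than in wild-type livers, beside 12.2% and 8.42% of all probes. Their median difference there was 0.47. Of 23 triglyceride storage and secretion genes, 4 rose in wild type, beside 5.23% of all probes (6 without untreated wild-type array 4). In knockout livers 0 were called by limma, beside 2.79% of all probes. At an unadjusted limma p under 0.05 there were 2 in the knockout, beside 4127 of all 26794 probes. In wild type Plin5, a lipid droplet protein, rose 4.97-fold (adjusted p = 0.0012), and Pnpla2, which starts triglyceride breakdown, rose 2.07-fold (adjusted p = 0.0046). Under dexamethasone 4 of the 23 were higher and 6 lower in knockout than in wild-type livers, beside 12.2% and 8.42% of all probes.

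As a yardstick for the drug, 9 of 16 glucocorticoid-induced genes rose in wild type, beside 5.23% of all probes. Without untreated wild-type array 4 that count was 8. In knockout livers 2 rose, Ddit4 and Fkbp5, beside 0.974%, a count that was 1 without untreated knockout array 1. At an unadjusted limma p under 0.05 there were 8 of 16 in the knockout, beside 4127 of all 26794 probes. The 8 include Pck1, which fell with the drug there (-1.24). The Fkbp5 call was lost in 7 of 8 fits with 1 array left out, and Fkbp5 was well above background on 3 of 4 untreated knockout arrays. In knockout livers given dexamethasone 14 of the 16 were lower than in wild-type livers, beside 8.42% of all probes. The median difference of the 16 for dexamethasone was 1.29 in wild type and 0.49 in knockout. Lpin1 lay above that median in both genotypes (1.68 and 1.20), though its knockout difference was not called. The list was chosen with earlier results of these data known, so its counts and medians are descriptions and not a test.

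Fewer cells of a type and less RNA per cell cannot be told apart in whole liver, and some markers of other cells differed between the groups. The summed signal of 8 adipocyte markers, in multiples of the 75th percentile, was 29.7 to 248 in treated and 126 to 167 in untreated knockout livers, against 10.6 to 28.6 in treated and 6.97 to 11.3 in untreated wild-type livers. Cfd had the largest difference among the markers tested, 60.9-fold higher in untreated knockout livers (adjusted p = 0.005) and 20.2-fold higher under the drug. Of the other 4 adipocyte markers tested, Plin1, Retn, Fabp4 and Lipe, none was called in untreated knockout livers (0.17 to 1.62), and under the drug Lipe was 0.73 higher (adjusted p = 0.033) while the others, at -0.10 to 0.44, were not called. With dexamethasone, Fabp4 was called higher in wild type (1.25) and in knockout livers (1.52), each at an adjusted limma p of 0.015. It was the only adipocyte call for the drug, beside 5.23% and 0.974% of all probes called higher. Of the 8 markers 3 to 5 were above background on all 4 arrays of a group. Lep was at background in every group and Adipoq in treated knockout and untreated wild-type livers. Adipose tissue is known to express Lpin1. The part of these markers in the lipin results was not tested.

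Skeletal muscle is the other tissue known for Lpin1. Its summed marker signal was 0.493 to 0.587 in treated and 0.453 to 0.673 in untreated knockout livers. In wild-type livers it was 0.364 to 0.6 with and 0.457 to 0.499 without dexamethasone. Myl1 and Pvalb were below background in each group. Of the 5 muscle markers tested, only Myh1 was called. It was 1.48 higher on the log2 scale in knockout than in wild-type livers given the drug (limma, adjusted p = 0.024). There 12.2% of all probes were called higher. The summed hepatocyte markers were 2360 to 2790 in treated and 2400 to 3550 in untreated knockout livers, against 2980 to 3380 in treated and 2700 to 4000 in untreated wild-type livers. Within that sum Apoa1 (-0.88) and Cps1 (-0.89) were called lower in untreated knockout livers, beside 0.836% of all probes. Under the drug Apoa1 (-0.80), Cyp2e1 (-0.53) and Cps1 (-1.28) were called lower in knockout livers, beside 8.42%, whereas Alb, Ttr and Fgb were called in neither comparison. Lpin1 was lower in the same livers, and the part of this in the lipin results was not tested.

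Of 7 B cell markers, Ms4a1, Cd79b and Fcmr fell with dexamethasone in wild type (log2 differences of -2.48 to -1.75) and in knockout livers (-3.06 to -2.12), beside 6.31% and 1.81% of all probes called lower. In knockout against wild-type livers Pax5 was higher without the drug, beside 1.58% of all probes called higher. With it Cd79a, Cr2 and Pax5 were higher, beside 12.2%. The summed B cell signal was 0.571 to 0.72 in treated and 1.02 to 2.49 in untreated knockout livers, against 0.358 to 0.469 in treated and 0.828 to 0.986 in untreated wild-type livers. Of 8 endothelial markers, Lyve1 rose with dexamethasone in wild type (2.41) and in knockout livers (2.58), and Kdr fell (-1.13 and -1.03). These were the endothelial calls for the drug, beside 11.5% and 2.79% of all probes called. In each of the marker lists for intestine, pancreas, macrophages, endothelium, stellate cells, bile duct, T and NK cells, neutrophils and erythroid cells, at most 2 members were called in any comparison. Over all probes the share called ran from 2.41% to 20.7% by comparison. The part of these cells in the lipin results was not tested.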

How the data were processed

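Liver RNA of 16 samples was read on 1-colour Agilent arrays of 45018 spots (1639 controls). Per the submitters' processing notes, the authors extracted signals with Agilent Feature Extraction 9.5. The processed signal is a background-subtracted intensity, and the mean and local background signals are intensities too, per the file headers. Per the file headers, yes-or-no flags (other values) mark spots that are outlying, saturated or above background. The deposited series table is an intensity with the same values as the processed signal (largest difference 0).

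Outlying spots (2121, 0.306%) were set missing, spots of a probe averaged, and the 75th percentile of an array subtracted from its log2 signals. A probe was kept where at least 3 of 4 arrays of some group were well above background. Limma 3.58.1 in R 4.3.3 fitted 4 group means, leaving 12 residual degrees of freedom, with Benjamini-Hochberg adjustment over all probes kept. A gene other than a lipin was read by its probe of highest mean. RefSeq gave a current symbol by accession for 23082 probes, by symbol for 6582 and by synonym for 3073, while 8437 had no match. Promoter sequences are RefSeq's on GRCm38.p6. Permutation tests used scipy 1.17.1 in Python 3.11.15.

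The members, lists and markers were chosen with earlier results of these data known. Named genes were all lipin probes, Nr3c1, up to 4 called members of each list with the largest change for dexamethasone in wild type, in knockout and the interaction, and the 5 genes most correlated with each lipin; other list and marker genes, such as Gpam, Agpat5, Ppargc1a and Cfd, were named after their values were seen. Replicate numbers were not taken to pair samples, since residuals of same-numbered arrays correlated at -0.23 to 0.352 (10 of 24 pairs over 0.1). The alternatives were quantile normalization, normexp (offset 50), the percentile taken over bright probes, filters on dim probes, outlying spots kept, 1 probe per gene, only the groups compared, a replicate block, a trended and robust variance, and each array left out. List counts without untreated wild-type array 4 or untreated knockout array 1 and the paralog differences with another Lpin2 probe were added after seeing the data. A probe for a clone described as lipin 2 but named by its accession was not used, and 2 genes that the naming rule selects are not reported here.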

Additional observations from a re-analysis of the deposited data

Results flagged for a closer look

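Of 136 groups of 4 arrays checked for an array far from the rest, 11 had one, and chance alone flags about 1 group in 20. Treated wild-type array 2 was low at the Lpin1 probes A_52_P483104 (5.87, against 6.33 to 6.42 on the other 3 arrays) and A_52_P483105 (6.29, against 6.86 to 6.88), and at the Lpin2 probe A_51_P370438 (1.49, against 1.81 to 1.87). Those Lpin1 probes share bases, so they are not separate signs.

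Untreated wild-type array 4 stood apart for Nr3c1 (2.13, against 2.47 to 2.52), Insig1 (0.46, against 1.57 to 1.66) and Plin5 (6.50, against 4.67 to 4.86). In untreated knockout livers Fkbp5 was -4.62 on array 1 (others -2.94 to -2.85), a value not well above background and so only a bound, Gpat4 6.47 on array 3 (others 6.55 to 6.56) and Sult1e1 -3.60 on array 4 (others -5.02 to -4.85, with 2 of the 4 arrays well above background). Plin5 was 5.52 on treated knockout array 4 (others 4.56 to 4.68), and Dgkz was -0.02 on treated wild-type array 1 (others 0.03 to 0.04).

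The response to dexamethasone differed between genotypes, as response in knockout minus response in wild type, for 9 reported genes of the lists and for no lipin. It was negative for Sult1e1 (-4.09), Insig2 (-2.60), Pnpla2 (-1.25) and Gpat4 (-0.96). It was positive for Srebf1 (2.86), Insig1 (1.48), Pcyt1b (1.39), Pld2 (1.01) and Dgkz (0.66). Most of these calls were fragile: with 1 of the 16 arrays left out in turn, they were lost in 15 fits for Dgkz, 14 for Sult1e1, 13 for Srebf1 and for Insig1, 12 for Gpat4, 8 for Insig2, 7 for Pld2, 6 for Pnpla2 and 0 for Pcyt1b. Pcyt1b was below background on all untreated knockout arrays and Sult1e1 on 2 of 4, so their values are not read as sizes.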

How the results depend on the processing

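The 3 Lpin1 calls (for the drug in wild type and for receptor loss in treated and untreated livers) and the Lpin2 call under dexamethasone against wild type held at the main probes in all 10 alternatives and with each array left out. The Lpin2 fall in knockout livers was -0.85 with normexp (adjusted p = 0.093), -0.81 with no filter (adjusted p = 0.05) and -0.81 with only the groups compared (adjusted p = 0.11), and did not pass, and was -0.92 to -0.72 with arrays left out. The Lpin2 interaction passed at -0.90 with the replicate block (adjusted p = 0.042) and with a trended, robust variance (adjusted p = 0.043), and was -1.01 to -0.77 with arrays left out, passing without untreated knockout array 1 (adjusted p = 0.023). The block also gave calls for Lpin2 probes A_51_P483081 (dexamethasone in wild type, -1.21, adjusted p = 0.045) and A_52_P397786 (untreated knockout, -1.65, adjusted p = 0.047), and ended the interaction calls of Dgkz and Insig1 and the Hnf4a call. With only the groups compared, the dexamethasone difference in wild type passed at A_51_P370438 (0.63), A_51_P483081 (-1.21) and A_52_P397786 (-1.22). Lpin2 minus Lpin3 for dexamethasone in knockout was -1.17 with normexp and did not pass by the exact permutation test; with an array left out the smallest possible p is 0.0571. With Lpin2 read by A_51_P370438, chosen after seeing the data, the calls for dexamethasone in knockout were lost for Lpin1 minus Lpin2 (1.05) and Lpin2 minus Lpin3 (-0.14), and Lpin2 minus Lpin3 passed for dexamethasone in wild type (0.60) and for untreated knockout (-1.47). The cause was not tested.

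Some values that did not pass changed sign. With normexp the dim Lpin2 probe A_52_P397786 was 0.09 for dexamethasone in knockout, against -0.71, and 0.09 for knockout against wild type under the drug, against -1.14, so its differences were not stable. Lpin3 for dexamethasone in wild type was -0.05 with normexp, and the Nr3c1 interaction -0.09. With arrays left out, dexamethasone in wild type ran from -0.04 to 0.19 for Lpin2, -0.12 to 0.18 for Lpin3 and -0.18 to 0.25 for Lpin2 minus Lpin3, dexamethasone in knockout from -0.07 to 0.29 for A_51_P370438, and the Nr3c1 interaction from -0.07 to 0.12.

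Counts of all probes called moved more. For dexamethasone in wild type the 3091 became 1554 with normexp, and 1632 to 3000 with arrays left out. For dexamethasone in knockout the 747 (261 higher, 486 lower) became 48 with normexp (21 and 27), 1229 with quantile normalization, 434 with no filter, 109 with only the groups compared, and 349 to 1067. For the interaction the 958 became 93, with no filter 548, with probes above background on all arrays 626, and 529 to 1860. For untreated knockout the 647 (423 higher, 224 lower) became 106 with normexp (45 and 61), 652 with quantile normalization (343 and 309), 288 with no filter, 69 with only the groups compared, and 164 to 739. For knockout under dexamethasone the 5535 became 2979 with normexp, and 3888 to 5027. Normexp moved the median of all probes for that comparison to 0.185, against 0.0628. List counts, all small, ran for the interaction up to 4 of 16 glucocorticoid-induced genes without untreated wild-type array 4, against 1, and from 0 to 1 for fatty acid oxidation, 1 to 2 for lipin regulators and for triglyceride storage, where the untreated knockout count was also 1 to 2; for glucocorticoid-induced genes in knockout livers it was 1, against 2. Of the 9 list genes reported with an interaction call, Sult1e1 kept it with normexp (adjusted p = 0.012) and the others lost it (adjusted p 0.068 to 0.58). Dim probes such as A_52_P397786 are limited by background.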
